A study of Bos taurus with 8 samples.

Results

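Most genes of potassium channels gave a signal no higher than the noise threshold in bovine granulosa cells. Of the few above it, 1, KCNN2, was called lower in High A4 cows than in Control cows. It was above the threshold only through Control, and 5 of 20 alternative ways of processing lost the call. Potassium channel genes were taken as the genes with a probe set that carries a single symbol, beginning with KCN. They numbered 86 of the 18010 genes read by a probe set with a single symbol, on 87 such probe sets among the 26773 of the array. A probe set is the group of probes on the array that reads 1 transcript. Each gene was represented by the probe set with the highest mean over the 8 cows, a choice that mattered for KCNIP3 alone, which had 2. Each was then set against a linear intensity of 100, the threshold for noise that the study used. The intensities that chose the probe sets and the threshold describe the genes and are not results.

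The granulosa cells, mural and cumulus together, came from the estrogen-active dominant follicle of estrous-synchronized beef cows of mixed Red Angus and MARC III breeding. The ovaries were removed about 36 hours after withdrawal of a progesterone device worn for 7 days. High A4 cows (n = 4) had a mean follicular fluid androstenedione, or A4, of 356 ng/mL, and Control cows (n = 4), called low A4 in the sample labels, had 1.9 ng/mL. These cows were picked from the ends of the A4 range of a larger herd, the groups were formed by A4 in the fluid and not by a treatment, and no ages were stated in the sources. RNA from each cow was hybridized to 1 Affymetrix Bovine Gene 1.0 ST array, so the spread between arrays is that between cows, and the number of arrays limits the precision. Values after ± are SDs over the 4 cows of a group.

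Potassium channels let potassium ions leave the cell down their gradient and so hold the membrane potential negative, which in turn sets the drive for calcium entry. Voltage-gated channels open on depolarization, calcium-activated channels open when calcium rises inside the cell, and inward rectifiers and channels with paired pore domains carry current near the resting potential. Auxiliary subunits do not form a pore but alter the gating and transport of the pore-forming subunits. Potassium currents have been recorded from granulosa cells of pig and chicken, and the membrane potential of steroid-producing cells responds to gonadotropins and cyclic AMP.

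Across all 26773 probe sets, arrays correlated at r = 0.976 to 0.985 within Control and 0.954 to 0.974 within High A4 over log2 intensities. Of 11 granulosa cell markers, 10 were above 100, and none of these 10 passed the test or had an unadjusted p under 0.05 from limma. CYP19A1, the aromatase gene, lay at 7106 ± 197 in High A4 and 6741 ± 188 in Control. Markers of other follicle wall cells differed between the groups. Of 6 theca markers above 100, 2 rose (CYP17A1 and ALDH1A1), and of 5 markers of stroma and fibroblasts above 100, 2 rose (DCN and OGN). No probe set on the array is at 0, so a gene without transcript also has an intensity, and levels are compared between cows and not between genes.

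Of the 86 potassium channel genes, 5 (5.81%) had a mean above 100 in at least 1 group, where 42.2% of the 18457 probe sets with a single gene symbol and 37.8% of all probe sets did. These were KCNN1 and KCNN2, which encode small-conductance calcium-activated channels, the voltage-gated KCND2 and KCNG3, and KCNK13, a channel with paired pore domains. KCNN1 and KCNK13 were above 100 in both group means. KCNN2 and KCND2 passed the threshold only through Control and KCNG3 only through High A4, so for these 3 the choice itself favours a difference. Just inside the threshold lay KCNK13 (higher group mean 115), KCNG3 (126) and KCNN2 (163), and just outside it KCNH2 (76.0), KCNAB1 (71.3) and KCNG1 (69.3). The other 81 genes had means at or under 100 in both groups. Only KCNAB1 among the 81 reached 100 in any cow, and KCNN1 was the only gene of the 86 above 100 in all 8 cows.

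**Figure D1:**
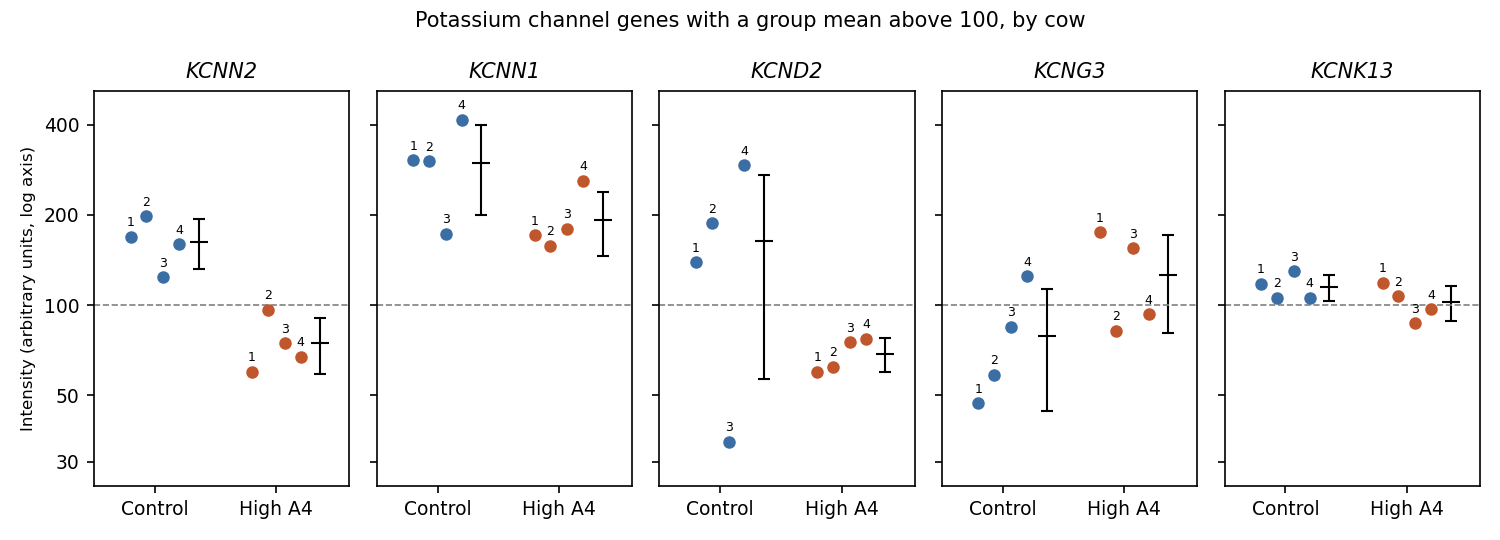
Intensity (arbitrary units, log axis) of the 5 potassium channel genes with a group mean above 100, 1 point per cow with its replicate number, and beside each group its mean and SD (n = 4 cows). The dashed line is the noise threshold of 100: all 4 Control cows lie above it and all 4 High A4 cows below it for KCNN2, and the groups overlap for the other 4 genes. KCNN2 and KCND2 passed the threshold only through Control, and KCNG3 only through High A4.

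KCNN2 encodes SK2, a channel that is opened by calcium through the calmodulin bound to it and that hyperpolarizes the cell after calcium has entered. Its intensity was 59.9, 96.6, 74.8 and 67.4 in High A4 replicates 1 to 4 and 169, 198, 124 and 160 in Control replicates 1 to 4. Every High A4 cow was below 100 and below the lowest Control cow. The gene passed 100 only through Control, so the place of each group beside 100 is no added support. KCNN2 fell from 163 ± 30.7 in Control to 74.7 ± 15.8 in High A4, a log2 difference of -1.13 (standard error 0.19, 95% interval -1.55 to -0.70), with an adjusted p = 0.0117 from limma over the 10120 probe sets above 100 in at least 1 group. Its geometric mean was 2.18-fold higher in Control. In this test 0.623% of the 10120 probe sets were called lower and 1.56% higher, and the groups did not overlap, in the lower direction, in 10.4% (2.93% in the higher direction). The median log2 difference of the 10120 was -0.16, and KCNN2 kept its call after centring of every array (-0.97, adjusted p = 0.0309). Fewer KCNN2-expressing cells and less KCNN2 RNA per cell cannot be told apart in bulk RNA.

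The call for KCNN2 was lost without Control replicate 1 (adjusted p = 0.0506) or Control replicate 2 (adjusted p = 0.0517) in limma. It was also lost in an analysis of variance of the kind the study used (adjusted p = 0.0829, or 0.378 with a raised error variance) and when every intensity under 100 was set to 100 (log2 difference -0.68, adjusted p = 0.0736 from limma). The study stated cutoffs on p and on fold change and named no adjustment of p. The loss in the analyses of variance therefore concerns the adjusted p used here and not the study's cutoffs. Before adjustment, KCNN2 was under the threshold for p in both analyses of variance. The log2 difference of KCNN2 stayed between -1.26 and -0.68 under the 20 alternatives run.

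**Figure D2:**
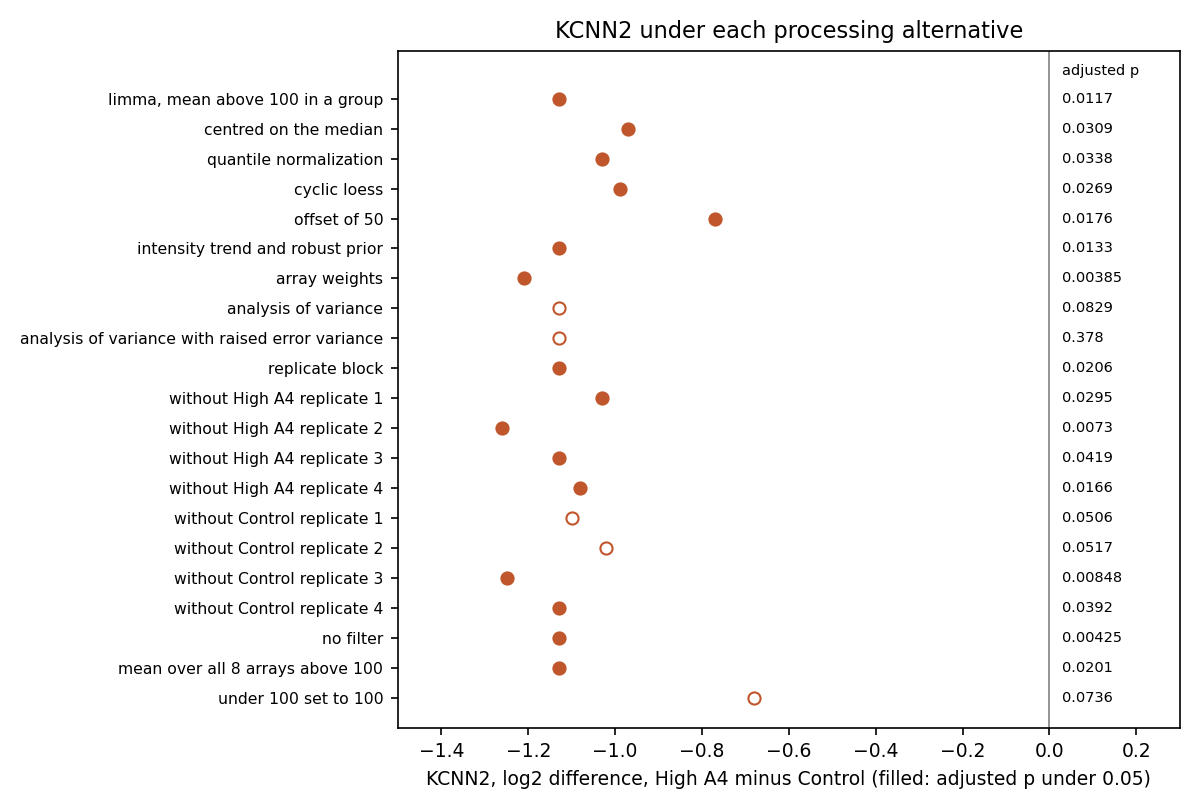
Log2 difference of KCNN2, High A4 minus Control, on the horizontal axis, for the limma test and 20 alternatives of processing on the vertical axis, with the adjusted p at the right. Filled points passed an adjusted p of 0.05: the difference is negative in every row, between -1.26 and -0.68, and 5 of the alternatives are open points.

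KCNN1 encodes SK1, the closest relative of SK2 among the genes above 100. Its intensity was 171, 158, 180 and 260 in High A4 replicates 1 to 4 and 305, 302, 173 and 416 in Control replicates 1 to 4. Control replicate 3 lay among the High A4 cows and the other Control cows above all of them. With means of 192 ± 45.8 in High A4 and 299 ± 99.3 in Control, its log2 difference of -0.60 (95% interval -1.17 to -0.02) did not pass (adjusted p = 0.218 from limma). The remaining members of this small family, KCNN3 (SK3) and KCNN4, the intermediate-conductance channel, lay near 14 in High A4 (14.2 ± 4.47 and 14.1 ± 1.99) and in Control (13.2 ± 2.02 and 14.6 ± 1.70). Their log2 differences were 0.07 and -0.05.

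KCND2 encodes Kv4.2, a voltage-gated channel of fast inactivating A-type current. Its intensity was 60.0, 62.3, 75.2 and 77.3 in High A4 replicates 1 to 4, and 139, 188, 35.0 and 293 in Control replicates 1 to 4. The High A4 cows lay close together, while 3 Control cows were above all of them and Control replicate 3 was below all of them. With a mean of 68.7 ± 8.84 in High A4 and 164 ± 107 in Control, the log2 difference was -0.91 (95% interval -2.08 to 0.26) and did not pass (adjusted p = 0.323 from limma). Without Control replicate 3 it was -1.53 with an adjusted p = 0.0125 from limma, and over the other 19 alternatives the adjusted p was not under 0.05. Control replicate 3 had the lowest intensity of the Control cows for KCNN1, KCNN2 and KCND2 alike. For KCNK13 it was the highest Control cow (130), and for KCNG3 (84.7) it lay between the others.

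Kv4 channels are assembled with auxiliary subunits, the KChIP proteins (KCNIP1 to KCNIP4) and the DPP6 and DPP10 proteins, and none of these 6 genes was above 100. KCNIP4 lay at 50.5 ± 15.9 in High A4 and 57.9 ± 8.85 in Control. All 4 KCNIP genes had log2 differences from -0.29 to 0.17. DPP10, chosen after its values were seen, lay at 26.8, 27.0, 45.4 and 32.2 in High A4 replicates 1 to 4 and 10.7, 9.86, 9.37 and 9.09 in Control replicates 1 to 4, with no overlap. Its log2 difference was 1.72 (adjusted p = 0.000242 from limma without the noise filter), opposite in sign to that of KCND2. The relatives of KCND2, KCND1 (-0.26) and KCND3 (0.04), lay under 100.

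KCNG3 encodes Kv6.3, an electrically silent subunit that makes channels only together with Kv2 subunits. Its intensity was 175, 82.1, 155 and 93.4 in High A4 replicates 1 to 4 and 47.2, 58.6, 84.7 and 125 in Control replicates 1 to 4, so that High A4 replicates 1 and 3 were above every Control cow and the other cows overlapped. The log2 difference of 0.70 (95% interval -0.04 to 1.44) did not pass (adjusted p = 0.244 from limma), and it was the only positive difference among the 5 genes. KCNB2, which encodes a Kv2 subunit, lay at 18.9 ± 4.02 in High A4 and 14.3 ± 1.12 in Control.

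KCNK13 encodes THIK-1, a background potassium channel inhibited by halothane. Its intensity was 119, 107, 87.0 and 97.1 in High A4 replicates 1 to 4 and 118, 106, 130 and 106 in Control replicates 1 to 4, with overlap. It had the narrowest interval of the 5 genes, with a log2 difference of -0.17 (95% interval -0.49 to 0.14, adjusted p = 0.471 from limma).

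Of the 5 genes above 100, then, 1 fell, 0 rose and 4 did not pass in limma. At an unadjusted p under 0.05 from limma, 2 were lower (KCNN2 and KCNN1) and 0 were higher, and in the analysis of variance 0 were called. Over all 10120 probe sets tested, 74.3% were lower, 17.1% were lower at an unadjusted p under 0.05 and 4.83% higher.

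The other 81 potassium channel genes were not in that test. Without the noise filter, over all 26773 probe sets, 6 of the 81 (7.41%) were higher in High A4 at an adjusted p under 0.05 from limma and 0 were lower, with 3 lower at an unadjusted p under 0.05. Among all 16653 probe sets at or under 100 in both groups, 12.2% were called higher and 1.12% lower in the same test (8.47% and 1.64% of all 26773). The difference between these shares was not tested, and with High A4 replicate 4 left out they were 13.6% and 13.8%. At an unadjusted p under 0.05, 17 of the 81 (21.0%) were higher, where 22.4% of the 16653 were, and 5.18% of the 16653 were lower. The groups did not overlap in the higher direction for 8 of the 81 (9.88%), where 16.2% of the 16653 did not, and in the lower direction for 1, KCNC1, where 2.85% did not.

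The median log2 difference of the 81 genes was 0.11, as it was over the 16653 probe sets at or under 100. It was 0.27 for both when each array was centred, and turned to -0.15 for the 81 genes with quantile normalization and -0.12 with cyclic loess (all 16653, -0.06 and -0.03). A positive difference was found in 54 of the 81 (66.7%), beside 63.6% of the 16653, and this count went to 25 and 30 with these normalizations, so the direction of the dim potassium channel genes as a group depends on how the arrays are scaled. Relative to the Control mean, the median of the 81 genes was 0.18, 0.19, 0.14 and -0.06 in High A4 replicates 1 to 4, and 0.20, 0.16, 0.15 and -0.02 over the 16653. The medians of the Control cows for the 81 genes were 0.14, -0.07, -0.01 and -0.05 in replicates 1 to 4, so that High A4 replicates 3 and 4 lay within the Control range and Control replicate 1 was level with High A4 replicate 3.

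**Figure D3:**
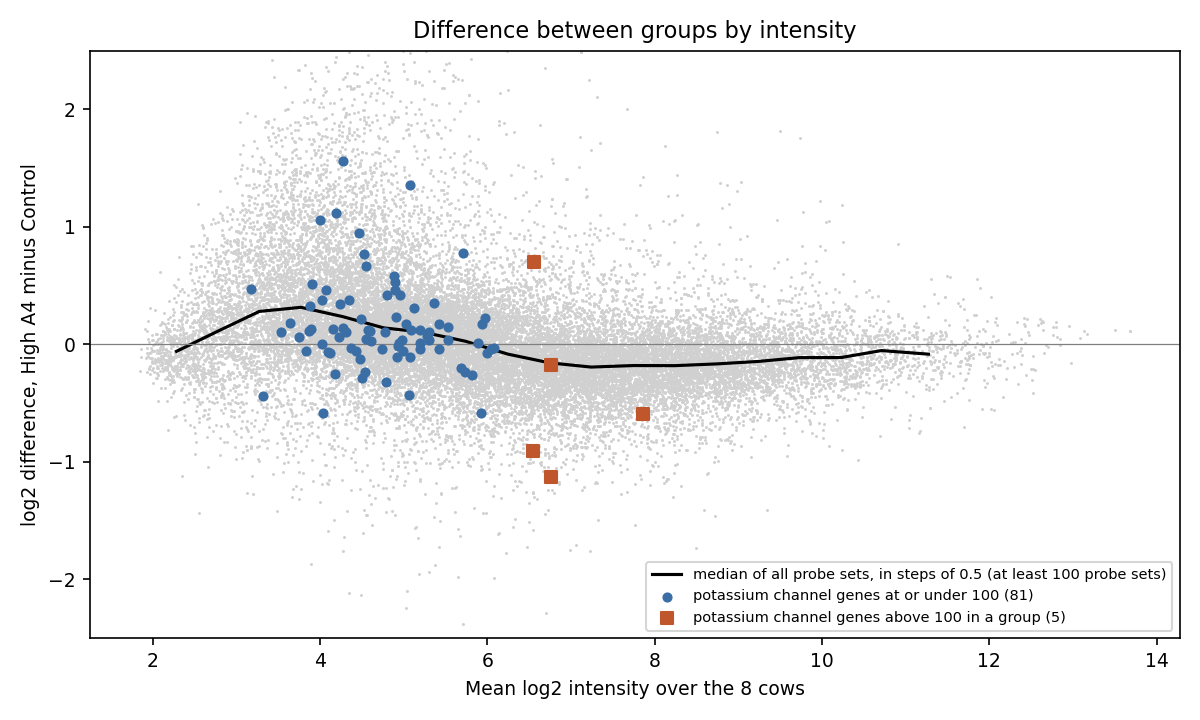
Log2 difference, High A4 minus Control, against the mean log2 intensity over the 8 cows, for all 26773 probe sets (grey; 117 lie outside the vertical range), with their running median as a line. The 81 dim potassium channel genes (circles, median 0.11) lie on both sides of the line, and the 5 genes above 100 (squares) run from -1.13 to 0.70.

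The 6 genes that passed without the noise filter were the inward rectifiers KCNJ13 and KCNJ1, the sodium-activated channel KCNT2, and the voltage-gated KCNH7, KCNH5 and KCNC2. All 6 were under 100 in every cow, and in all 6 the lowest High A4 cow was above the highest Control cow. They were picked by p on these same values, so the separation is no added support. Of all 16653 probe sets at or under 100, 16.2% were separated in this direction. Their signal lies in the range that the study treated as noise.

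KCNJ13 encodes Kir7.1, an inward rectifier of transporting epithelia. Its intensity was 39.7, 62.2, 66.9 and 52.1 in High A4 replicates 1 to 4 and 18.7, 22.3, 18.6 and 25.7 in Control replicates 1 to 4, a log2 difference of 1.36 (standard error 0.19, adjusted p = 0.00137 from limma without the filter). KCNT2 encodes Slick, a channel opened by sodium and chloride inside the cell. It lay at 23.6, 30.8, 41.2 and 40.6 in High A4 and at 9.78, 15.7, 8.88 and 11.8 in Control, a log2 difference of 1.56 (standard error 0.23, adjusted p = 0.00182 from limma without the filter), the highest of the 86 genes. Its relative KCNT1, or Slack, had a log2 difference of 0.01.

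KCNH7 (ERG3) and KCNH5 (EAG2) belong to the ether-a-go-go family of voltage-gated channels. KCNH7 had 31.8, 32.3, 26.3 and 33.3 in High A4 and 16.0, 13.5, 16.8 and 18.0 in Control, a log2 difference of 0.95 (adjusted p = 0.00239 from limma without the filter). KCNH5 had 30.2, 18.7, 20.4 and 24.2 in High A4 and 11.3, 8.85, 11.0 and 13.6 in Control, a log2 difference of 1.06 (adjusted p = 0.00557 from limma without the filter). Not all genes of the family had positive differences: KCNH2, the ERG1 channel of cardiac repolarization, lay at 51.2 ± 14.8 in High A4 and 76.0 ± 16.1 in Control (log2 difference -0.59, adjusted p = 0.145 from limma without the filter).

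KCNC2 encodes Kv3.2, a channel of fast-spiking neurons. It lay at 24.6, 18.6, 44.4 and 25.5 in High A4 and 11.5, 13.4, 12.9 and 12.0 in Control (log2 difference 1.11, adjusted p = 0.0131 from limma without the filter). High A4 replicate 3 was the highest cow by a wide gap, and without it the log2 difference was 0.87 (adjusted p = 0.0117 from limma without the filter). KCNJ1 encodes ROMK, the potassium secretory channel of the kidney tubule. It lay at 32.0, 29.2, 35.8 and 24.3 in High A4 and 19.3, 20.4, 16.7 and 14.5 in Control (log2 difference 0.77, adjusted p = 0.0167 from limma without the filter), and its call was lost without High A4 replicate 3 (0.0506) or Control replicate 3 (0.0513).

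With quantile normalization the calls of KCNJ13, KCNT2 and KCNH7 were kept and those of KCNH5, KCNC2 and KCNJ1 were lost, while cyclic loess kept KCNH5 as well. In the analysis of variance KCNC2 (adjusted p = 0.0747) and KCNJ1 (adjusted p = 0.0538) were lost. With an offset of 50 added before the log, the log2 differences of the 6 shrank to between 0.24 (KCNJ1) and 0.56 (KCNJ13), and KCNC2 was lost (0.32, adjusted p = 0.0875 from limma). None of the 6 passed in the analysis of variance with a raised error variance. The markers of stroma and fibroblasts had a median log2 difference of 0.84 over 10 genes, 10 of 10 with a positive difference, and their summed intensity was 2041 to 3776 in High A4 and 779 to 2740 in Control cows. The theca markers had a median of 0.65 over 7 genes, 7 of 7 positive, with sums of 6014 to 9506 in High A4 and 3027 to 5087 in Control. LHCGR was the largest part of the theca sums (3661 to 4963 in High A4 and 2102 to 3862 in Control). LUM was the largest part of the stroma sums (933 to 2107 and 247 to 1905). The groups overlapped for both genes, while the theca sums did not overlap. A sum weighs its brightest gene most, so these sums are not a measure of the share of a cell type. Endothelial markers (median 0.21 over 9 genes, 1 above 100) summed to 374 to 422 and 291 to 343, and leukocyte markers (0.17 over 10 genes, 0 above 100) to 379 to 906 and 337 to 698. Among the leukocyte markers, LYZ was 217 in High A4 replicate 1 and 20.3 to 26.8 in the other High A4 cows. Smooth muscle markers (0.08 over 9 genes, 3 above 100) and nerve markers (-0.01 over 5 genes, 0 above 100) had sums of 680 to 1062 and 202 to 271 in High A4 and of 806 to 1047 and 209 to 235 in Control. The part of these cells in the potassium channel values was not tested.

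**Figure D4:**
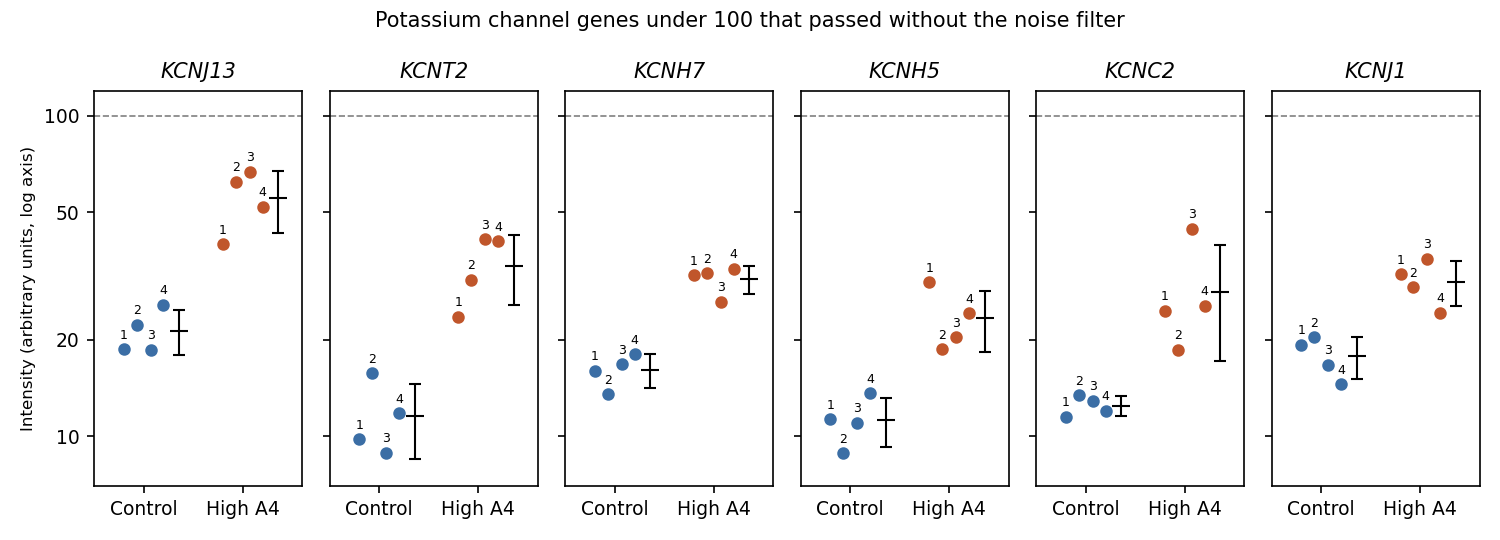
Intensity (arbitrary units, log axis) of the 6 potassium channel genes at or under 100 that passed limma without the noise filter, 1 point per cow with its replicate number, and beside each group its mean and SD (n = 4 cows). All points lie under the dashed line at 100, and in each panel the 4 High A4 cows lie above the 4 Control cows. The choice of these genes by p on the same values favours such a separation.

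By family, the 34 voltage-gated alpha subunits had 2 genes above 100 (KCND2 and KCNG3), and the others had log2 differences from -0.59 to 1.11, with a median of 0.11 over all 34. KCNQ1, the pore of the slow delayed rectifier, lay at 46.7 ± 3.13 in High A4 and 46.1 ± 8.41 in Control, and its partner KCNE1 at 12.0 ± 0.302 and 11.2 ± 1.16. KCNA4, the Kv1.4 channel, had a log2 difference of 0.67 (adjusted p = 0.0571 from limma without the filter) and just missed the threshold. Among the 8 calcium- and sodium-activated channels, KCNN1 and KCNN2 were above 100. KCNMA1, the pore of the large-conductance BK channel, lay at 29.0 ± 6.19 in High A4 and 26.8 ± 4.47 in Control (log2 difference 0.10).

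None of the 14 inward rectifiers was above 100. KCNJ8 and KCNJ11, the pores of channels closed by ATP, had log2 differences of 0.01 and -0.10, and of their sulfonylurea receptor partners ABCC8 had -0.18 and ABCC9, chosen after its values were seen, had 0.62 (24.0 ± 1.71 in High A4 and 15.6 ± 0.589 in Control, adjusted p = 0.0105 from limma without the filter). KCNJ5 and KCNJ3, subunits of the channels opened by G protein beta-gamma, had differences of opposite sign, and neither passed. The other subunits of these channels, KCNJ6 and KCNJ9, had log2 differences of 0.13 and 0.01. KCNJ5 lay at 11.4, 19.8, 12.1 and 11.6 in High A4 and 23.1, 21.1, 20.2 and 16.2 in Control (log2 difference -0.58, adjusted p = 0.105 from limma without the filter), and KCNJ3 had a log2 difference of 0.47 (adjusted p = 0.0951 from limma without the filter). KCNJ1 and KCNJ5 are neighbours in the RefSeq order of protein-coding genes and differed in sign.

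Of the 13 channels with paired pore domains, KCNK13 was above 100, and the other 12 had log2 differences from -0.21 to 0.58. KCNK2, the mechanically gated TREK-1, was at the upper end with 38.1, 35.4, 46.3 and 27.7 in High A4 and 20.1, 23.8, 22.2 and 32.4 in Control (adjusted p = 0.0971 from limma without the filter), and KCNK3, the acid-sensitive TASK-1, at the lower end with 52.3, 57.3, 39.1 and 45.3 in High A4 and 49.5, 46.3, 75.7 and 54.1 in Control.

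The 17 auxiliary subunits and regulators were all at or under 100, with a median log2 difference of 0.11, and none passed without the filter, and 5 were higher at an unadjusted p under 0.05 from limma (22.4% of all 16653 probe sets at this level). KCNAB1, a beta subunit of Kv1 channels, lay at 57.4, 78.6, 49.1 and 100 in High A4 and 26.0, 41.0, 56.0 and 43.0 in Control (log2 difference 0.78, adjusted p = 0.106 from limma without the filter). KCNAB3 of the same family lay at 29.3, 25.3, 28.9 and 32.5 in High A4 and 60.0, 33.3, 40.9 and 28.0 in Control (log2 difference -0.43). The beta subunits of the BK channel, KCNMB1 to KCNMB4, had log2 differences of 0.46, 0.46, 0.35 and 0.22, beside 0.10 for their pore, and adjusted p of 0.107 to 0.492 from limma without the filter.

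**Figure D5:**
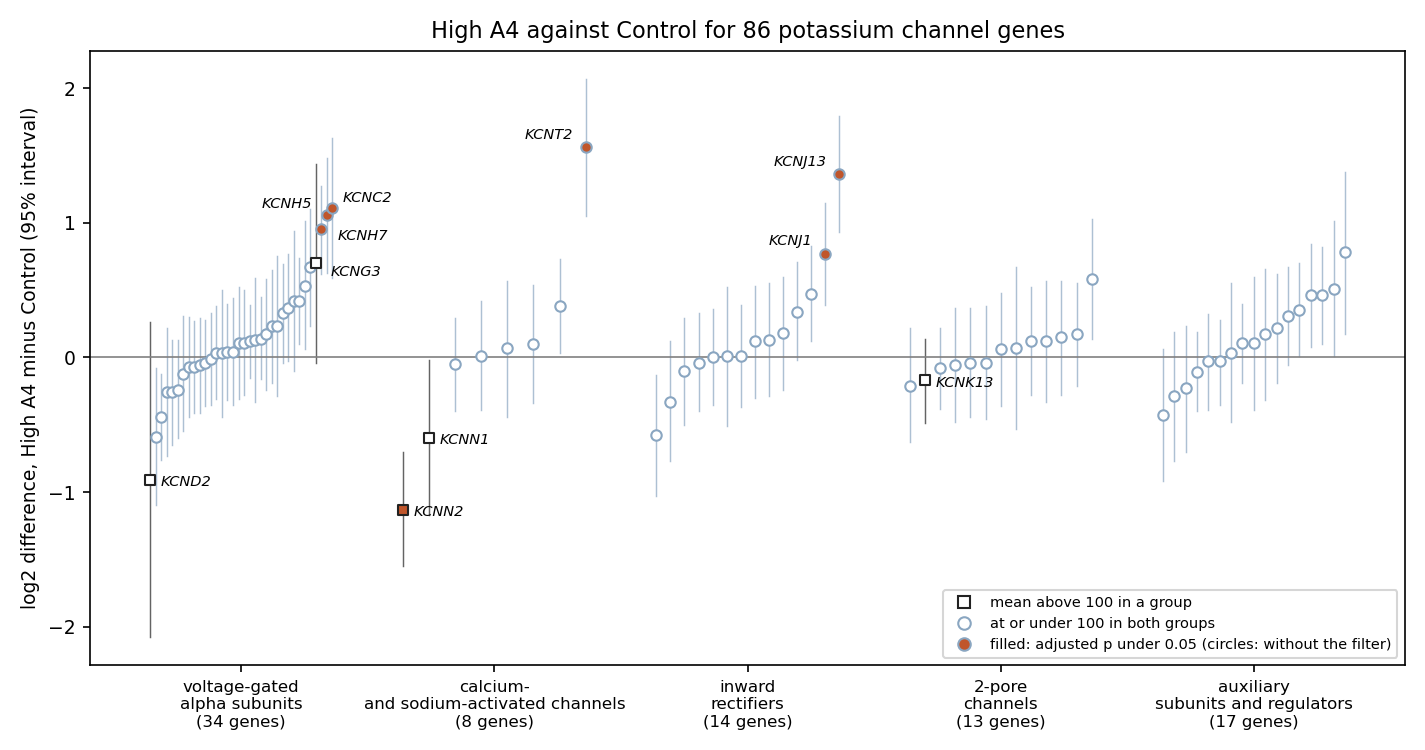
Log2 difference, High A4 minus Control, with its 95% interval on the vertical axis, for the 86 potassium channel genes grouped by family and sorted within it. Squares are the 5 genes above 100 and circles the 81 others: among filled points, which passed an adjusted p of 0.05, KCNN2 is the only one below 0.

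Genes that work with potassium channels were set beside them from lists by name. Of 16 measured partners (channel partners, kinases and intracellular potassium channels), 5 were above 100 and none passed in limma or in the analysis of variance, with 2 lower at an unadjusted p under 0.05. Over all 10120 probe sets tested, 17.1% were lower at this unadjusted p from limma. PRKACB, a catalytic subunit of the cyclic AMP-dependent kinase, lay at 421 ± 85.3 in High A4 and 569 ± 62.4 in Control (log2 difference -0.45, adjusted p = 0.186 from limma). Of 19 measured potassium pumps and cotransporters, 6 were above 100 and none passed or had an unadjusted p under 0.05 in limma, or was called in the analysis of variance. SLC12A2, the sodium-potassium-chloride cotransporter NKCC1, lay at 173 ± 36.5 in High A4 and 132 ± 31.5 in Control (log2 difference 0.40, adjusted p = 0.280 from limma), and the median of the 6 was -0.07.

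Of 39 measured sodium, calcium and pacemaker channel genes, 4 were above 100, none passed in limma or in the analysis of variance, and 1 was lower at an unadjusted p under 0.05. This was SCN9A, the sodium channel Nav1.7, at 48.3, 82.1, 83.0 and 93.8 in High A4 and 103, 114, 171 and 113 in Control, with no overlap (log2 difference -0.72, adjusted p = 0.134 from limma). Over all 10120 probe sets tested, 17.1% were lower at this unadjusted p from limma, and 10.4% did not overlap in this direction. Without the filter 4 of the 39 were higher (SCN7A, SCN3A, SCN2A and CACNA2D1, all chosen after their values were seen and all under 100), with log2 differences of 1.32, 1.53, 1.02 and 1.43 and adjusted p from 0.000337 to 0.0221 in limma. Among all 16653 probe sets at this level 12.2% were called higher.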

How the data were processed

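The deposited data were linear, normalized intensity values in arbitrary units, which the authors made from 8 arrays with 26773 probe sets each. Robust Multi-Array Averaging is named in the study's methods, but GCRMA and Affymetrix Expression Console in the submitters' processing notes, so the method that gave the intensities is open. No version, annotation build, scan date or batch was stated.

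On the log2 scale, the probe sets whose mean passed 100 in either group entered a fit in limma (version 3.58.1, R version 4.3.3) with Benjamini-Hochberg adjustment and a threshold of 0.05. All adjusted p come from limma unless an analysis of variance is named. Symbols came from a platform table, and 84 of the 86 genes matched RefSeq by gene ID. Families follow the symbols. Members and lists were chosen with earlier results of these data known.

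Genes were named if they passed with or without the filter, were above 100, had the most extreme difference of a family, or lay nearest the threshold, and from other lists if they passed or had the smallest p. Any other gene, such as a relative or partner subunit of these, was chosen after its values were seen. Alternatives covered the filter, scaling, an offset of 50, variance priors, array weights, analysis of variance (also with error variance raised to the mean of the 500 nearest probe sets), the replicate block and each cow left out. The fits were tested on simulated data. Sequences were not analysed here.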

Additional observations from a re-analysis of the deposited data

Results flagged for a closer look

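Gaps were checked in 18 genes given cow by cow, 16 potassium channel genes with DPP10 and SCN9A, in each group (36 groups of 4 values), and 2 groups held a cow far from the others by Dixon's critical value for a group of this size. KCNJ5 in High A4 replicate 2 had an intensity of 19.8, where the other High A4 cows had 11.4 to 12.1, and its gap was 0.917 of the range of the group. These intensities are under the noise threshold of 100. SCN9A in Control replicate 3 had an intensity of 171, where the other Control cows had 103 to 114, and its gap was 0.833 of the range of the group. Chance alone flags about 1 in 20 such groups.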

How the results depend on the processing

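The number of potassium channel genes above 100 was 5 under each scaling and with each cow left out. Past the threshold, 1 gene fell, or 0 in both analyses of variance and with values under 100 set to 100 (an alternative chosen after seeing the data), and 0 to 2 with a cow left out (the second was KCND2, without Control replicate 3). The 0 that rose became 6 without the filter. The 2 lower at an unadjusted p under 0.05 became 1 with each scaling (cyclic loess, centring, quantile normalization) and in both analyses of variance, 5 without the filter, and 1 to 3 with a cow left out. The 0 higher became 1 with each scaling and with array weights, 17 without the filter, and 0 to 1 with a cow left out. The median of the 5 genes above 100, a description only since 3 of them passed the filter through 1 group, was -0.60 and became -0.42 with cyclic loess, -0.43 with quantile normalization, -0.44 with centring, 0.09 without the filter (86 genes) and -0.84 to -0.41 with a cow left out. The median of all 86, 0.09, turned to -0.15 with quantile normalization and -0.12 with cyclic loess.

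Without the filter, further alternatives were chosen after seeing the data. The 6 higher became 3 with quantile normalization, 0 with raised error variance and 5 to 11 with a cow left out (11 without High A4 replicate 4), and the 1 lower became 3 with cyclic loess or quantile normalization, 2 with centring, 0 with raised error variance and 1 to 3 with a cow left out. No partner, pump or other channel gene passed higher, but 2, 1 (SLC12A1) and 4 did without the filter. These were among 11, 13 and 35 genes at or under 100 in both groups. Of all 16653 probe sets at that level, 12.2% were called higher.

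Over all probe sets, the 158 higher became 328 with array weights, 96 and 22 in the analyses of variance without and with raised error variance, 2267 without the filter, 68 with a mean over all 8 arrays above 100, 49 with values under 100 set to 100, and 114 to 302 with a cow left out. The 63 lower became 18 with cyclic loess, 19 with quantile normalization and 19 with centring, 939 with array weights, 24 and 0 in the analyses of variance, 440 without the filter, 17 with a mean over all 8 arrays above 100, 15 with values under 100 set to 100, and 9 to 575 with a cow left out (575 without High A4 replicate 4, 9 without Control replicate 2). The cause of these changes was not tested.

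The replicate number is a label of separate cows, so the main test did not pair them. Same-numbered cows deviated together with r = 0.19, -0.22, -0.11 and 0.20, and cows of different numbers with r from -0.19 to 0.25. These few values cannot decide whether same-numbered arrays share an effect. With the replicate block the lower probe sets numbered 25 and KCNN2 had an adjusted p = 0.0206 from limma, and the only named gene to change its call was KCNA4, which passed without the filter. The second probe set of KCNIP3 changed no count.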
